A study of Mus musculus with 10 samples.

Results

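The genes described here are 10 neighbours on mouse chromosome 6, among 19938 genes that had a probe set of their own on the array. They are Nxph1 at one border, then Phf14, Thsd7a, Vwde, Tmem168, Bmt2, Gpr85, 2610001J05Rik and Ppp1r3a inside a stretch that read lower in transgenic brain, and Mdfic at the other border. Each is represented by probe sets that the platform annotation assigns to that symbol alone, which gave 11 probe sets, with a pair for Nxph1 and a single one for every other gene. The genes were chosen by the measured difference between transgenic and wild-type brain. Their differences are therefore given as a description with intervals and without a test.

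Whole brains of 5 transgenic (Tg) and 5 wild-type (WT) mice were measured, each on its own 1-colour Affymetrix gene array. Both groups were naive adult males on a C57Bl/6J background and were littermates; the Tg mice carried a bacterial artificial chromosome for Glo1 overexpression, and the WT mice did not. Glo1 encodes glyoxalase 1, the enzyme that clears methylglyoxal. No founder line or promoter of the transgene is named in the sources used here. Glo1 itself read 10.24 to 10.63 log2 units in WT and 11.79 to 12.10 in Tg on its first probe set, so the labels matched the transgene. The arrays measure brightness on a log2 scale, and a level here means that reading, which depends on the probes as well as on the RNA.

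A gene normally gives RNA from both of its chromosome copies, and loss of 1 of 2 equally active copies would leave 50% of the level. Neighbouring genes need not share a function. In this stretch they include a synaptic ligand, an orphan receptor, a chromatin reader, a sensor of S-adenosylmethionine and a glycogen-targeting subunit of muscle. Nxph1, neurexophilin 1, is a secreted glycoprotein of inhibitory neurons that binds alpha-neurexins at synapses. Gpr85, also called SREB2, is a highly conserved orphan G protein-coupled receptor of neurons. Bmt2, also called SAMTOR, binds S-adenosylmethionine and restrains the growth kinase complex mTORC1 when methionine is scarce.

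The tissue label was compared with marker genes. All 5 neuronal, all 5 inhibitory neuron, all 5 astrocyte, all 4 measured oligodendrocyte and all 5 microglial markers read above the level of genes that brain keeps silent, defined below. WT replicate 2 stood apart from the other arrays. Its mean correlation with them across probe sets was 0.992, against 0.994 to 0.997. The mean of 8 cerebellar markers was 7.76 log2 units on that array, 10.63 to 10.75 on the other 4 WT arrays and 10.40 to 10.53 on the 5 Tg arrays. Every Tg array thus lay below these 4 WT arrays in cerebellar markers, as it did for the lower genes of the stretch, and the part of this in their differences was not tested. The mean of 5 pituitary markers was 10.08 on WT replicate 2 and 9.70 on Tg replicate 2, against 6.31 to 6.66 on the other 8 arrays. Values of the chromosome 6 genes are therefore also given without WT replicate 2. In whole-brain RNA, fewer cells of a type and less RNA per cell cannot be told apart.

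The start regions of the 10 genes differed in sequence, as shown by 3 windows chosen to span a broadly expressed gene (Bmt2), a neuronal gene (Gpr85) and a gene that was dim in brain (Ppp1r3a). Each runs from 250 bases before to 50 bases after the annotated start, 5′ to 3′ on the gene's strand, from RefSeq on build GRCm38.p6, and all 3 genes lie on the minus strand. The window of Bmt2 is chr6:13677917-13678216, that of Gpr85 is chr6:13839893-13840192 and that of Ppp1r3a is chr6:14755225-14755524. Capitals mark any match, on either strand, to CCAAT (the CCAAT box), TATAAA (the TATA box), GGGCGG (the GC box) or TGACGTCA (the cAMP response element).
Bmt2: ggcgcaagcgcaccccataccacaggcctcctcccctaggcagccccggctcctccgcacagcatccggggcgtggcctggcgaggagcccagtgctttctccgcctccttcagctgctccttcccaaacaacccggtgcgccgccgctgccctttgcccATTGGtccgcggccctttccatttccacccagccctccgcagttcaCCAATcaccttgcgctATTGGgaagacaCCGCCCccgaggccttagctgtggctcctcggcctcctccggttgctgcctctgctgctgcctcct
Gpr85: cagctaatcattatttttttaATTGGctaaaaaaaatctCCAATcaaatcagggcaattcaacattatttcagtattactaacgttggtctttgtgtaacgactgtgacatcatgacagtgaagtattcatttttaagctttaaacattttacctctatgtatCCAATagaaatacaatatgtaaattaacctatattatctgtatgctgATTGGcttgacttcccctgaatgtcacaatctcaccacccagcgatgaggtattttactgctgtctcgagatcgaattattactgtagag
Ppp1r3a: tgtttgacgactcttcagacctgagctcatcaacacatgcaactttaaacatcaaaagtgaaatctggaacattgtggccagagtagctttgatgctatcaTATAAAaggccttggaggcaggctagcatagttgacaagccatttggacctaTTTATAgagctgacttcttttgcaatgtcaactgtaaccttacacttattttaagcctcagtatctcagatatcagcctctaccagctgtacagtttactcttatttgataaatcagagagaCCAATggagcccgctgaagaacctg

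All 10 genes matched at least 1 window and Phf14 had 2, which gave 11 windows. The window of Bmt2 held 20 CpG sites, that of Gpr85 held 5 and that of Ppp1r3a held 2, where the median of all 32841 windows was 7. The first window of Phf14 was the richest with 33 CpG sites, and the window of Vwde held 3. A CCAAT box stood in 7 of the 11 windows, in Nxph1, Thsd7a, Vwde, Bmt2, Gpr85, Ppp1r3a and Mdfic, and in 37.4% of all windows. A GC box stood in 7 windows of 6 genes and in 35.7% of all windows. The TATA box was found in Tmem168 and Ppp1r3a, with 13.6% of all windows holding it, and the cAMP response element in 0 of 11, with 1.79% of all windows. None of these motifs was shared by all of the genes inside the stretch. A match is a description of the letters and not of binding.

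Gpr85 read 8.49, 8.11, 8.65, 8.41 and 8.58 log2 units on WT replicates 1 to 5, and 7.93, 7.52, 7.79, 7.78 and 7.77 on Tg replicates 1 to 5. The highest Tg value lay 0.18 below the lowest WT value, so the groups did not overlap, and replicate 2 was the lowest array in each group. The Tg level was 62.0% of the WT level (95% interval 53.1 to 72.3, n = 5 per group). Gpr85 lay just outside the limma threshold that had outlined the stretch, and Bmt2 just inside it.

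Bmt2 was the brightest of the 10 genes. It read 10.43, 9.99, 10.52, 10.64 and 10.55 in WT and 9.65, 9.45, 9.68, 9.72 and 9.75 in Tg, in the order of the replicate numbers. The groups were separate by 0.25 log2 units, and again replicate 2 was the lowest array of each. The Tg level was 58.4% of WT (49.5 to 68.9), an interval that held 50%. The spread among WT arrays was 0.25 log2 units (SD, n = 5), and 0.090 without replicate 2 (SD, n = 4).

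Phf14 encodes a PHD finger protein that reads chromatin, and it had the lowest Tg level of the 10 genes. Its WT values were 9.65, 9.53, 9.69, 9.76 and 9.42, and its Tg values were 8.83, 8.81, 8.73, 8.55 and 8.57. The gap between the groups, 0.59 log2 units, was the widest among the 11 probe sets. The Tg level was 53.2% of WT (47.3 to 59.8), which also held 50%.

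Thsd7a and Tmem168 code for membrane proteins. Thsd7a carries thrombospondin repeats and has been studied in endothelial cells and in the podocytes of the kidney. It read 9.94, 9.93, 9.95, 9.87 and 9.83 in WT and 9.22, 9.33, 9.22, 9.26 and 9.14 in Tg, a Tg level of 62.9% of WT (58.7 to 67.4). The mean of 5 endothelial markers was 9.34 to 9.39 on the WT arrays and 9.37 to 9.49 on the Tg arrays; its part in the values of Thsd7a was not tested. Tmem168, whose role in brain is little known, read 8.23, 8.07, 8.27, 8.30 and 8.27 in WT and 7.57, 7.65, 7.63, 7.62 and 7.61 in Tg. Its Tg arrays were the most alike of any of the 11 probe sets, with an SD of 0.030 log2 units (n = 5). Tmem168 kept the highest level of the 6 bright genes described inside the stretch, 65.3% of WT (60.6 to 70.3). For both genes the interval lay above 50% and the groups did not overlap.

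2610001J05Rik is annotated through a non-coding RNA accession. It read 9.08, 8.85, 9.12, 9.08 and 9.12 in WT and 8.30, 8.17, 8.54, 8.41 and 8.15 in Tg. The WT arrays other than replicate 2 lay within 0.1 log2 units of each other, while the Tg arrays were more spread (SD 0.17, n = 5). The groups did not overlap, and the Tg level was 60.004% of WT (53.0 to 67.9).

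Vwde and Ppp1r3a, the remaining described genes inside the stretch, were dim. Vwde, which codes for a secreted protein with von Willebrand factor D and EGF domains, read 6.31, 6.43, 6.22, 6.11 and 6.24 in WT and 6.10, 6.20, 6.13, 6.23 and 6.26 in Tg. Ppp1r3a codes for the subunit that anchors protein phosphatase 1 to glycogen in skeletal muscle. It read 5.47, 5.54, 5.17, 5.29 and 5.12 in WT and 5.21, 5.28, 5.27, 5.36 and 5.41 in Tg. The groups overlapped for both genes. Vwde stood at 94.7% of WT (86.3 to 103.9) and Ppp1r3a at 99.1% (87.6 to 112.1). Of 5 skeletal muscle markers, Acta1, Ckm and Tnnt3 read above the level of silent genes and Myh4 and Mylpf did not, and the mean of the list was 7.25 to 7.48 over all 10 arrays.

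**Figure D1:**
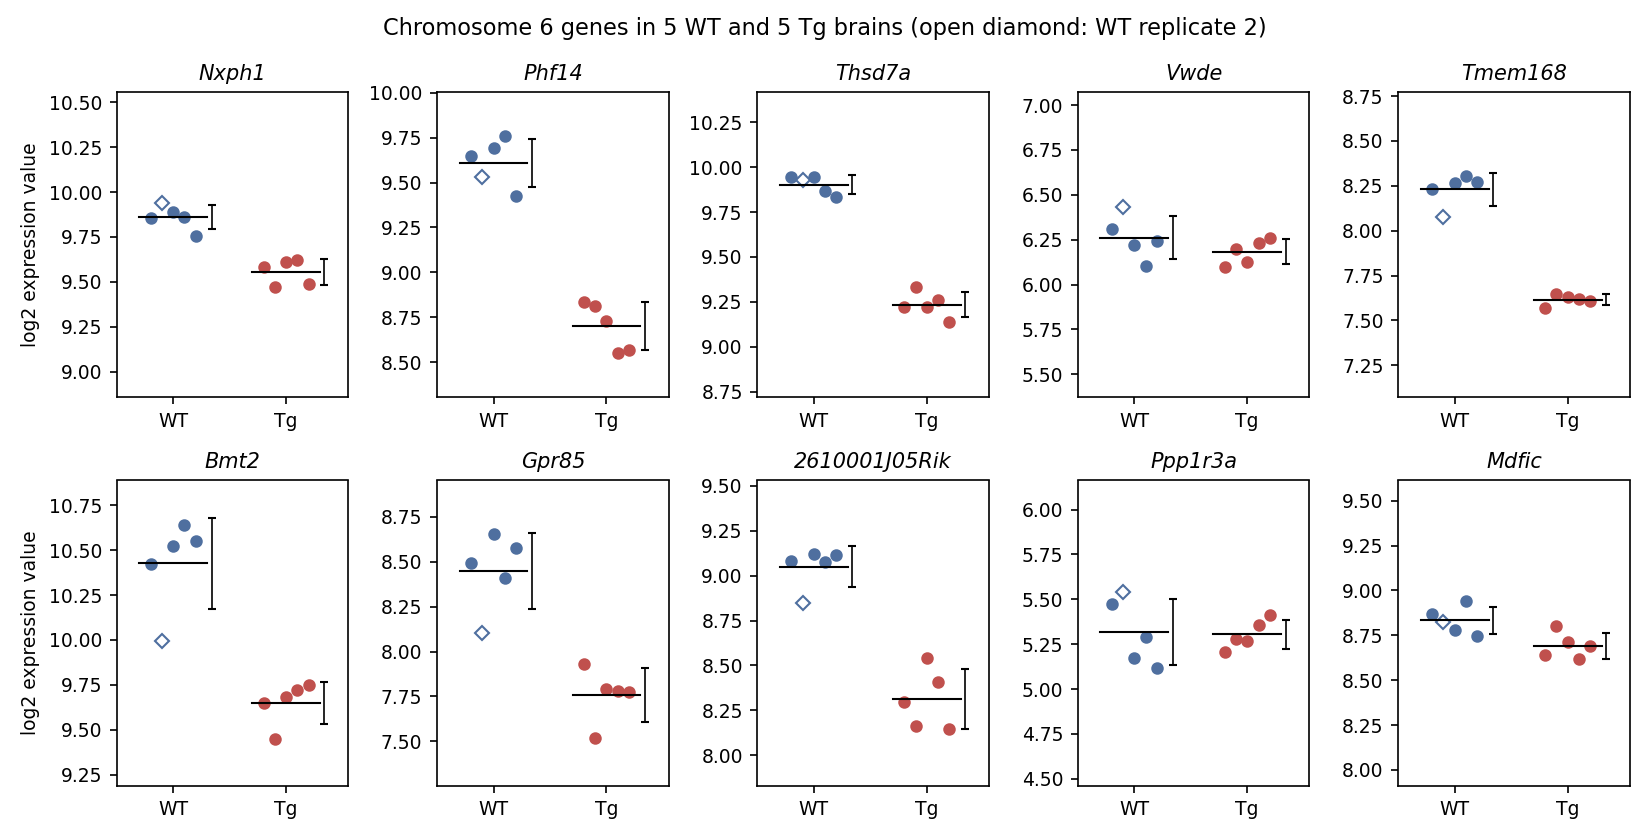
Log2 expression value of each gene's brightest probe set in WT (blue) and Tg (red) brains; each point is 1 mouse, lines are group means, bars are SD (n = 5 per group), and every panel spans the same number of log2 units. The groups are separate for 7 genes, while Vwde, Ppp1r3a and Mdfic overlap, and WT replicate 2 (open diamond) is the lowest WT value of Tmem168, Bmt2, Gpr85 and 2610001J05Rik.

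In all, 5 of the 10 genes passed the limma threshold of 0.05 after Benjamini-Hochberg adjustment over 28944 probe sets, namely Phf14, Thsd7a, Tmem168, Bmt2 and 2610001J05Rik; over all probe sets 0.0276% were called lower. For 7 of the 10 genes every Tg value lay below the lowest WT value, against 0.311% of all probe sets. Both counts follow from how the genes were chosen and say nothing further about them.

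Of the genes described, 6 were bright and lay inside the stretch, where Ndufa4, Tmem106b and Foxp2 were bright too. The 6 described genes had a median Tg level of 61.0% of WT, with a range of 53.2% to 65.3%. The 5 Tg mice were alike in this respect. Averaged over the 6 genes on the log2 scale, their levels were 61.8%, 57.8%, 62.5%, 60.7% and 58.2% of the WT mean, in the order of the replicate numbers. The WT mice stood at 101.8%, 87.2%, 106.3%, 104.6% and 101.3%, with replicate 2 the lowest and still well above every Tg mouse. Single readings under 50% came from Phf14 on Tg replicates 4 and 5, at 48.0% and 48.5%. No Tg mouse read any of the 6 genes above 70.4%, the value of 2610001J05Rik on Tg replicate 3.

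**Figure D2:**
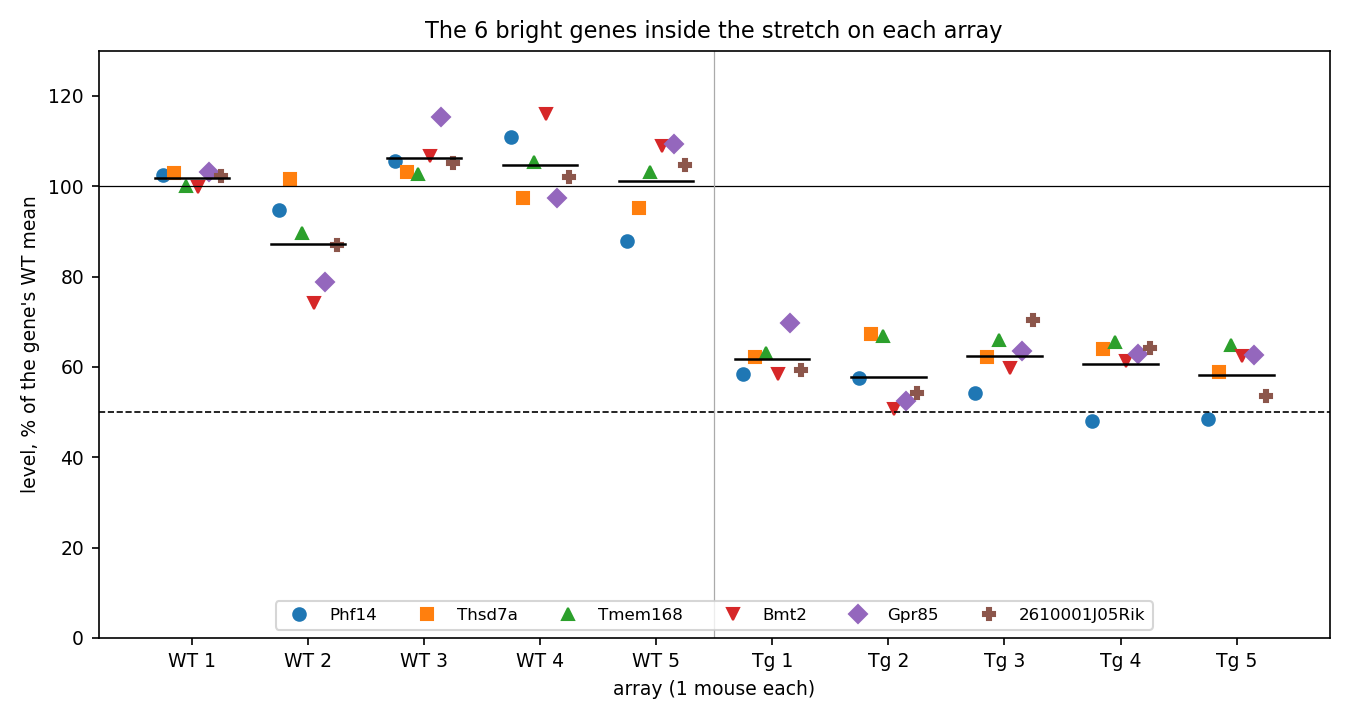
Level of Phf14, Thsd7a, Tmem168, Bmt2, Gpr85 and 2610001J05Rik on each array as a percent of that gene's WT mean; black bars are the mean over the 6 genes on the log2 scale, and the dashed line is 50%. The Tg means lie between 57.8% and 62.5%, and the lowest WT mean is 87.2% on WT replicate 2.

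Removing WT replicate 2 lowered the Tg percentage most for the genes that were low on that array. Relative to the mean of the other WT arrays, Bmt2 read -0.54 log2 units there, Gpr85 -0.43, 2610001J05Rik -0.25 and Tmem168 -0.20, each outside the range of the other 4 WT arrays. Nxph1, Vwde and Ppp1r3a lay above that range, while Phf14, Thsd7a and Mdfic lay within it. Without that array the Tg level was 54.1% of WT for Bmt2, 58.4% for Gpr85, 57.9% for 2610001J05Rik and 63.5% for Tmem168. Phf14 then stood at 52.4% and Thsd7a at 63.2%. The low cerebellar and high pituitary readings of this array moved with these values, and their part in them was not tested. Tg replicate 2 shared the high pituitary reading. On that array Bmt2 and Gpr85 were the lowest of the Tg group, while Tmem168 and Thsd7a were the highest. The lowest Tg value of 2610001J05Rik was on Tg replicate 5.

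Brightness was set against genes that nearly all brain cells keep off. The 1210 probe sets of olfactory and vomeronasal receptor genes had a median of 5.22 log2 units, and 95% of them read no higher than 6.97. The 8 genes other than Vwde and Ppp1r3a had WT means between 8.23 and 10.43, above this limit. The WT mean of Vwde, 6.26, exceeded 83.1% of the silent genes, and that of Ppp1r3a, 5.32, exceeded 54.2%. Such a reading cannot show how much signal these genes gave. If everything above the silent median fell to 50%, the percentage read on the array would be 96.4% for Ppp1r3a and 74.2% for Vwde. The measured interval of Ppp1r3a held that value, and the interval of Vwde lay above it. The background of an individual probe set is unknown, and Vwde lies inside the range that silent genes span.

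For the bright genes the same calculation gave readings of 51.3% (Bmt2) to 56.2% (Tmem168) within the stretch. The measured percentages exceeded these values for all 6 genes, by least in Phf14, where 53.2% stood against 52.4%. The measured interval nevertheless held the calculated value for Phf14 (47.3 to 59.8) and Bmt2 (49.5 to 68.9 against 51.3%). It also did so for Gpr85 (53.1 to 72.3 against 55.3%) and 2610001J05Rik (53.0 to 67.9 against 53.5%). For Thsd7a (58.7 to 67.4 against 51.9%) and Tmem168 (60.6 to 70.3 against 56.2%) the interval lay above the calculated value. When the silent median of each array was subtracted before the ratio was taken, the 6 genes stood at 50.8% to 61.4% of WT, with a median of 57.1%. The order then ran Phf14 (50.8%), Bmt2 (56.6%), Gpr85 (57.0%), 2610001J05Rik (57.1%), Tmem168 (60.1%) and Thsd7a (61.4%). Subtracting the 90th percentile of the silent genes instead, a choice made after seeing the data, gave 46.4% to 58.6% with a median of 49.6%, and 3 of the 6 genes then lay at or under 50%. Thsd7a was the highest in both cases, although it was the second brightest in WT. Across these 6 genes the Spearman correlation of WT brightness with percent of WT was -0.54 as deposited and -0.26 after subtraction of the silent median. Genes on the same arrays are not independent, and 6 points give only a description. How close the bright genes came to 50% thus depended on the background assumed.

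**Figure D3:**
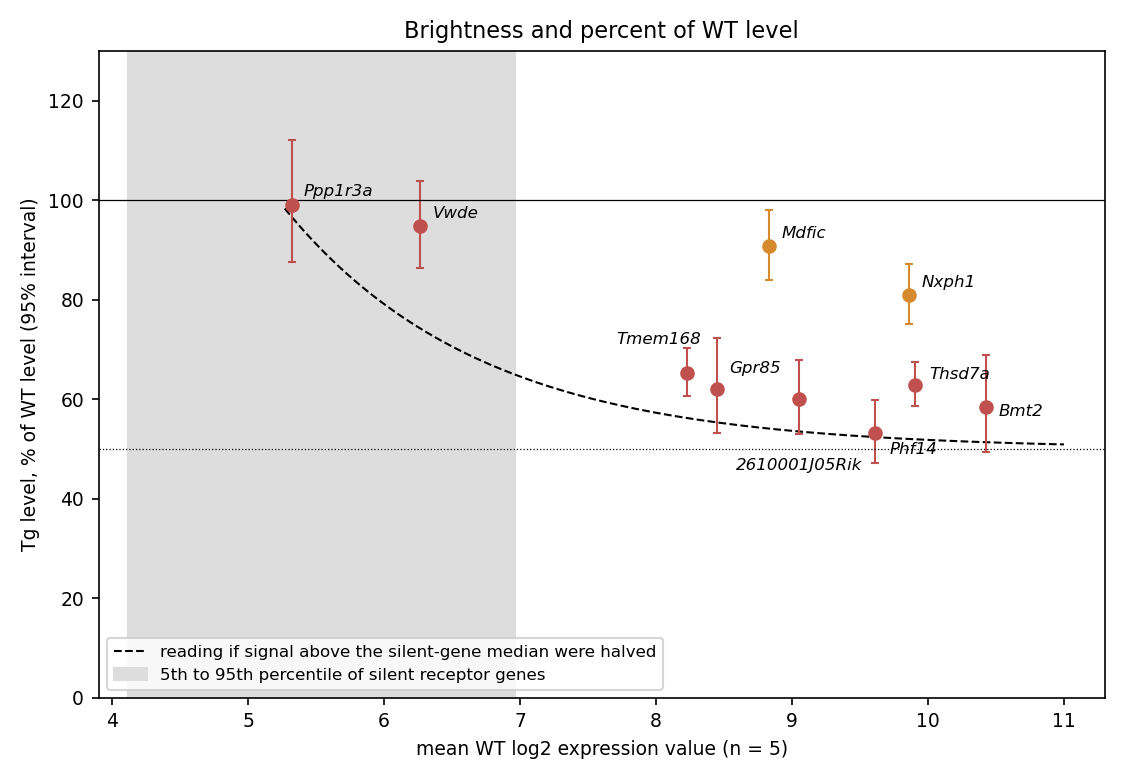
Mean WT log2 value (x axis) against Tg level as a percent of WT with its 95% interval (y axis) for the genes inside the stretch (red) and at its borders (orange); grey marks the 5th to 95th percentile of silent receptor genes, and the dashed curve is the reading if the signal above the silent median fell to 50%. The 6 bright genes described inside the stretch lie at 53.2% to 65.3%. Nxph1 and Mdfic lie above them at like brightness, and Vwde and Ppp1r3a fall within the grey range.

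The border genes differed less. On its brighter probe set Nxph1 read 9.86, 9.94, 9.89, 9.86 and 9.76 in WT and 9.58, 9.47, 9.61, 9.62 and 9.49 in Tg. The groups did not overlap, with a gap of 0.13 log2 units, and the Tg level was 80.9% of WT (75.1 to 87.1). The dimmer Nxph1 probe set read 8.23 to 8.54 in WT and 7.70 to 8.11 in Tg, again without overlap, at 76.2% of WT (66.3 to 87.5). Both intervals lay above 50% and below 100%. The mean of 5 inhibitory neuron markers, the cells in which Nxph1 is known to be made, was 11.03 to 11.21 on the WT arrays and 11.08 to 11.196 on the Tg arrays.

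Mdfic, at the other border, codes for an I-mfa domain protein that regulates transcription and associates with mechanically gated PIEZO channels. It read 8.87, 8.83, 8.78, 8.94 and 8.75 in WT and 8.64, 8.80, 8.71, 8.62 and 8.69 in Tg. The groups overlapped through Tg replicate 2, and the Tg level was 90.7% of WT (83.9 to 98.0). Its WT mean of 8.83 lay between those of Gpr85 and 2610001J05Rik on the array.

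In gene order, Ndufa4, Gm6578, Tmem106b and Foxp2 also lie between Nxph1 and Mdfic. Ndufa4 stood at 58.0% of WT, Tmem106b at 57.5%, Foxp2 at 64.2% and the dim Gm6578 at 94.4%. Among measured genes Foxp2 comes next to Mdfic and Ndufa4 next to Nxph1. Levels of 58.0% and 80.9% thus stood side by side in this order at one border, and levels of 64.2% and 90.7% at the other. The order leaves out genes without a probe set of their own and gives no distances. Outside the borders levels were close to those of WT. The 10 nearest bright genes beyond Nxph1 stood at 92.5% to 106.6% and the 10 beyond Mdfic at 94.5% to 105.0%. By limma 0 of these 20 passed the adjusted threshold, and 0 had an unadjusted p under 0.05, against 2.21% of all probe sets. Ica1, Glcci1 and Rpa3, the nearest beyond Nxph1, stood at 95.5% (88.1 to 103.6), 98.99% (92.0 to 106.5) and 94.4% (76.6 to 116.4). The identifier of the Glcci1 probe set falls among those of another chromosome, so whether it reads the chromosome 6 gene alone is uncertain. Tes, Cav2 and Cav1, the nearest beyond Mdfic, stood at 97.2% (91.9 to 102.8), 94.7% (85.4 to 105.1) and 103.1% (94.0 to 113.1). For all 6 the limma adjusted p was 0.9998.

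**Figure D4:**
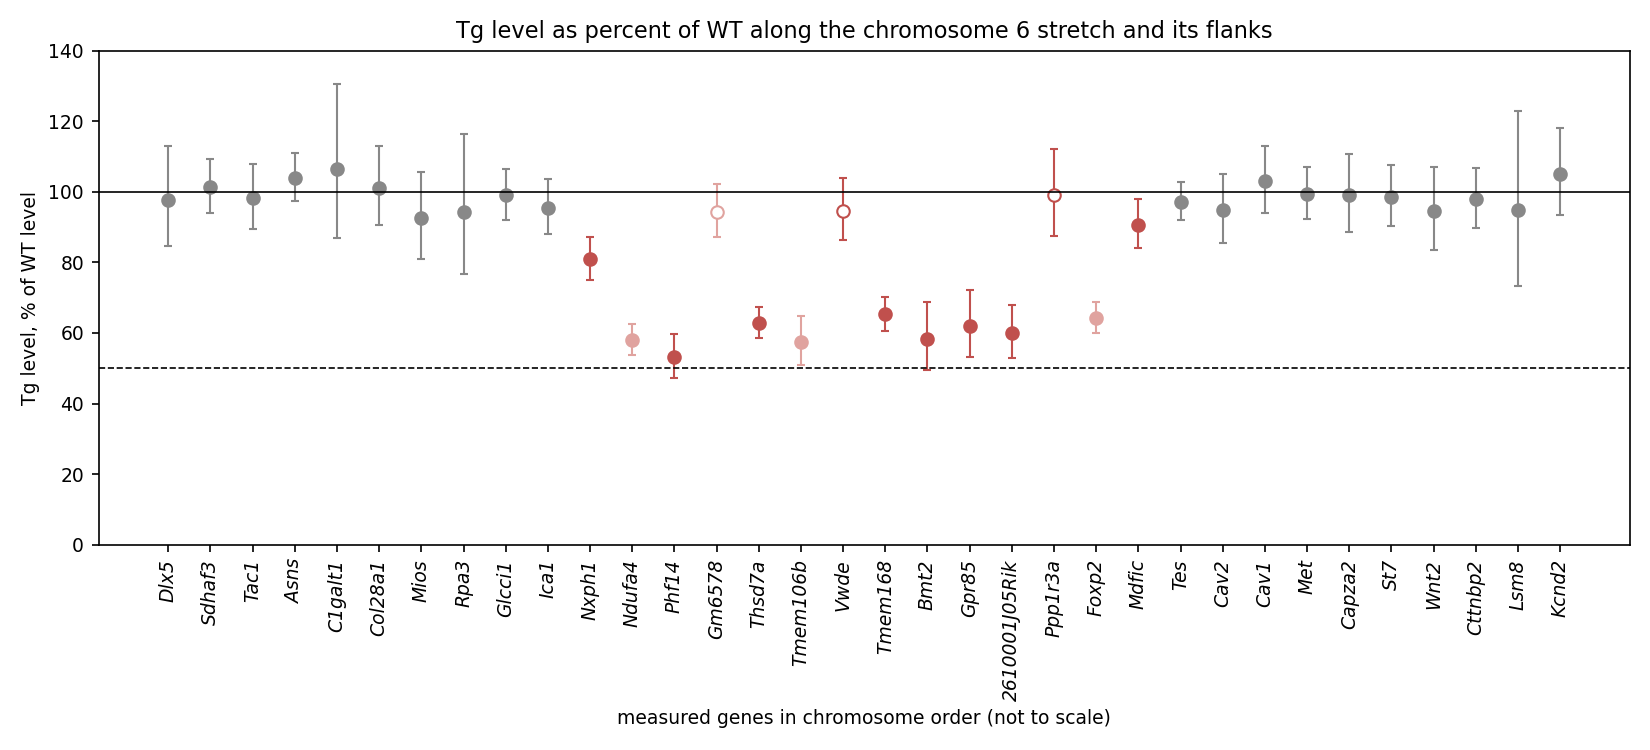
Tg level as a percent of WT with its 95% interval for measured genes in chromosome order, not to scale; dark red marks the 10 genes described, light red the other genes of the stretch, grey the 10 nearest bright genes on each side, and open symbols genes that did not read above silent genes. Bright genes inside the stretch lie between 53.2% and 65.3%, Nxph1 at 80.9%, Mdfic at 90.7%, and the flanking genes between 92.5% and 106.6%.

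Relatives and partners of these genes were examined next, to see whether others of the same family or complex differed. Of 49 listed genes 43 were measured and 41 were bright. By limma 0 of the 43 passed the adjusted threshold in either direction, and 1 had an unadjusted p under 0.05, Piezo2, at 106.7% of WT (100.1 to 113.8) and not bright. The median difference of the 43 genes was 0.0088 log2 units, beside -0.0031 over all probe sets. Their Tg levels ranged from 92.5% to 109.2% of WT.

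Among synaptic partners of Nxph1, 5 of 6 listed genes were measured and 0 passed. Nxph4, another neurexophilin, stood at 109.2% of WT (99.4 to 120.1), and the neurexins Nrxn2 and Nrxn3 at 97.1% (91.7 to 102.8) and 97.4% (92.1 to 103.0). The paralogs of Gpr85 also did not pass. Gpr173 stood at 94.0% (87.4 to 101.1) and Gpr27 at 103.4% (91.6 to 116.6), and neither interval held 50%. Thsd7b, the paralog of Thsd7a, stood at 100.3% (90.04 to 111.7).

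Around Bmt2, 16 of 20 listed genes of S-adenosylmethionine metabolism and nutrient sensing were measured, all bright, and 0 passed. Mios, a subunit of the GATOR2 complex and itself a neighbour beyond Nxph1, had the lowest level at 92.5% (81.1 to 105.6). Nprl3, a subunit of the GATOR1 complex through which Bmt2 acts, stood at 95.01% (87.3 to 103.4), and Sesn2, a leucine sensor, at 94.7% (87.4 to 102.7). Of the 3 listed partners of Phf14 in its chromatin complex, Rai1 stood at 95.9% (89.2 to 103.1) and Tcf20 at 99.5% (89.7 to 110.3). Of 13 glycogen-targeting subunits and glycogen enzymes 0 passed, with Ppp1r3e at 105.9% (97.7 to 114.9), Gys1, glycogen synthase, at 104.4% (96.9 to 112.5) and Ppp1cc, a catalytic subunit, at 104.3% (94.2 to 115.5). Mdfi, the paralog of Mdfic, stood at 102.2% (96.0 to 108.8) and Piezo1 at 103.1% (90.8 to 117.0). The limma adjusted p of every gene named here was 0.9998.

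Apart from genotype, the 8 bright genes did not all move together. Over deviations from the group means on 10 arrays, the 28 pairs of the 8 bright genes had a median Pearson correlation of 0.10, from -0.53 to 0.80, and 17 pairs were positive. The closest pairs were Tmem168 with Bmt2 (r = 0.80, Spearman 0.65) and Bmt2 with Gpr85 (r = 0.78, Spearman 0.28), both of which share the low reading on WT replicate 2. Pairs among Tmem168, Bmt2, Gpr85 and 2610001J05Rik, all low on that array, were all positive, with r from 0.49 to 0.80. Without WT replicate 2 the pairs among these genes ran from -0.65 to 0.43, and the median over all 28 pairs was 0.071. Among 19924 genes outside the stretch, those whose deviations were most like the mean of the 8 genes were Rpp38 (r = 0.99), Ppp2r5c (r = 0.99) and Mrpl57 (r = 0.98) over 10 arrays. Without WT replicate 2 they were Lrrc8b, Gatc and Ttll1 (r = 0.98 each), so the likeness depended on that array. The top of a ranking of so many genes over so few arrays is a description only.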

How the data were processed

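Whole-brain RNA of 10 mice was measured on 10 single-channel arrays. The authors' deposited values are log2 expression values per probe set, from 3.28 to 14.7 over 35556 rows. Per the submitters' processing notes the software was Affymetrix Expression Console 1.1.2. How it corrected background and normalized, and on which genome build, is not given in the sources used here. Control rows, 6612 in number (18.6%) and recognised by identifiers before the first transcript cluster, were left out, which left 28944 probe sets. Of these 21789 had 1 gene in the platform annotation, 1621 had several and 5534 were unnamed here. For 21698 of the probe sets with 1 gene, the symbol was taken through the Entrez identifier from RefSeq for GRCm38.p6. RefSeq also gave the gene order and the promoter windows. The brightest probe set represented a gene.

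A limma 3.58.1 model of genotype alone (lmFit, eBayes; R 4.3.3) was fitted to all 28944 probe sets, and p-values were adjusted over all of them by Benjamini-Hochberg (threshold 0.05). Percent of WT is 2 to the power of the Tg minus WT difference of mean log2 values, with the 95% interval of the fit. The fit was tested on simulated data. The members and lists were chosen with earlier results of these data known. The text names all 10 members, the other genes of the stretch, the 3 nearest bright genes on each side and the genes of lowest p of each relatives list, up to 3. Alternatives were other normalizations, variance models, filters, array weights, a replicate block, background subtraction and leaving out each array. The labels do not say whether replicate numbers pair the mice, and the main model did not pair them. The number of arrays limits the precision.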

Additional observations from a re-analysis of the deposited data

Results flagged for a closer look

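In 22 groups of 5 arrays tested (11 probe sets in WT and in Tg), 1 held an array whose gap to the nearest other array took up more than 0.71 of the group's range. That is about what chance gives at 1 in 20 for independent groups, but these groups share the same 10 arrays. The flagged value was 2610001J05Rik on WT replicate 2, at 8.85 log2 units where the remaining WT arrays spanned 9.08 to 9.12. The same array had a cerebellar marker mean of 7.76, against 10.40 to 10.75 on the others. Leaving it out moved the Tg level of 2610001J05Rik from 60.004% to 57.9% of WT.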

How the results depend on the processing

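Tg levels of the 6 bright genes described inside the stretch stayed below 100% of WT in all 108 recalculations. They ran from 46.4% to 66.1%, and from 51.5% to 66.1% where no background was subtracted. Their median, 61.0%, was 57.1% after subtraction of the silent-gene median and 49.6% after subtraction of the silent-gene 90th percentile; with single arrays left out it ranged from 58.2%, without WT replicate 2, to 62.1%. For the 10 genes, 168 of 176 alternative percentages moved by less than 1 SD of the Tg arrays and none crossed 100% among the called genes. Subtraction was not run for Vwde and Ppp1r3a, which read within the silent range. Probe sets lower in Tg numbered 8, and 5 among the upper 30% of probe sets, a fit that tests fewer genes; with single arrays left out they numbered 7 to 9. Bmt2 left the called genes under median centring and when any array other than WT replicate 2 was left out, and Gpr85 joined them without WT replicate 2, with array weights, with the replicate block, with the trended and robust variance model and among the upper 60% of probe sets. Among the upper 30% of probe sets only 3 of the 10 genes were tested, Nxph1, Thsd7a and Bmt2, and all 3 were called. With the replicate block the median percent of WT was 61.0% and 0 relatives passed. Same-numbered arrays correlated at -0.47 to 0.45, which cannot settle whether they were pairs, and the main fit did not pair them. The number of bright genes was 8 with the silent limit at its 90th, 95th or 99th percentile. The flanking genes and the relatives had 0 past the threshold in every alternative run.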
